A study of Mus musculus with 6 samples.

Results

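Ubiquitin-conjugating enzymes, also called E2 enzymes, are the middle step of the cascade that attaches ubiquitin to proteins. The genes described here are the protein-coding genes whose symbol begins with Ube2 and which lie on an autosome, a rule that uses no measured value. There were 35 such genes among the 50686 genes of the count table. Of these, 31 passed the filter on low counts and were tested. The other 4, Ube2d2b, Ube2d4, Ube2ql1 and Ube2u, had 0 counts in all 6 libraries, which allows up to 0.183 CPM (counts scaled to the total of the library) in the shallowest library and 0.0450 in the deepest, for counting error only.

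An E1 enzyme first activates ubiquitin or a ubiquitin-like protein such as SUMO, NEDD8 or ISG15. The E2 takes it over on a cysteine and, with an E3 ligase, passes it to the target. The E2 often decides which kind of chain is built: chains through lysine 48 of ubiquitin send proteins to the proteasome, and chains through lysine 63 serve signalling and DNA repair. UBE2C and UBE2S work with the anaphase-promoting complex, the ligase that ends mitosis, and UBE2T with the Fanconi anaemia ligase.

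The libraries were bulk RNA sequencing of natural killer (NK) cells from C57BL/6J mouse spleen, in 2 groups of 3. The WT group came from healthy wild type mice. The Eumyc group came from mice given Eµ-myc lymphoma, a Myc-driven B cell lymphoma, into a vein, with spleens taken at day 14. All samples were depleted of B cells, enriched with CD49b beads and sorted as NK1.1-positive cells without the T cell receptor beta chain, but in the Eumyc samples the fraction not bound by the beads was sorted too, so the sort and the lymphoma cannot be told apart. Whether each sample is its own mouse is not stated in the labels, so the p-values reflect only the sample-to-sample spread, which may be technical.

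The libraries held 16407611 to 36534191 counts in WT and 44456157 to 66615602 in Eumyc. The NK cell markers were present in every library: 10 marker genes, led by Gzma, summed to 13956 to 14096 CPM in WT and 12432 to 13363 CPM in Eumyc, with 6 of the 10 lower and 1 higher in Eumyc by the test given below. The summed markers of other cells were far lower, and each of those sums was higher in every Eumyc library than in every WT library. The sums over 10 genes a list were 16.7 to 20.1 against 51.6 to 57.5 CPM for B cells and 112 to 124 against 496 to 1170 CPM for monocytes and macrophages. They were 14.9 to 33.8 against 61.8 to 73.3 CPM for erythroid cells, where 9 of the 10 genes were in the table, 3.28 to 4.94 against 50.6 to 78.2 CPM for neutrophils, 756 to 846 against 1225 to 1321 CPM for dendritic cells and 306 to 344 against 391 to 421 CPM for T cells. By the same test 8 of 10 B cell, 6 of 10 monocyte and macrophage, 8 of 9 erythroid, 9 of 9 tested neutrophil, 6 of 10 dendritic cell and 3 of 10 T cell genes were higher and none was lower. In the same order, these lists were led by Cd22, Csf1r, Hbb-bs, Csf3r, Itgax and Trbc1. Which cells the reads of these leading genes came from was not tested. The neutrophil genes Mmp8, Elane and Ly6g and the dendritic cell gene Siglech were at 0 in all WT libraries, and no listed gene was at 0 in all 6. The part of these cells in the results below was not tested. In bulk RNA, fewer cells of a type and less RNA per cell cannot be told apart.

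With edgeR's quasi-likelihood test and Benjamini-Hochberg adjustment over all 15458 tested genes, 10 of the 31 tested Ube2 genes were higher in Eumyc and 4 were lower at an adjusted p under 0.05. Over all tested genes, 25.7% were higher and 23.1% lower, 48.8% in all. The median log2 fold change of the 31 genes was 0.16, against -0.0050 over all tested genes. The size of the differences divided the family more than their number did. Ube2c, Ube2s, Ube2t and Ube2l6 had log2 fold changes above 1. The log2 fold changes of all the other called members lay between -0.36 and 0.39. Against a change of 1.5-fold, only Ube2c and Ube2s passed, where 8.15% of all genes were higher and 3.67% lower. Without WT 2 or Eumyc 1 the number of higher members was 5 or 6, without Eumyc 3 the number of lower members was 2, and with scaling by total counts 6 were higher and 5 lower. Of the 14 calls, 7 held in each of the 6 fits that left out 1 library. Among them were Ube2c, Ube2s, Ube2t, Ube2m and Ube2n, which were higher, and Ube2b, which was lower. The share of all called genes that held in this way is not given here, so the 7 cannot be set against it.

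**Figure D1:**
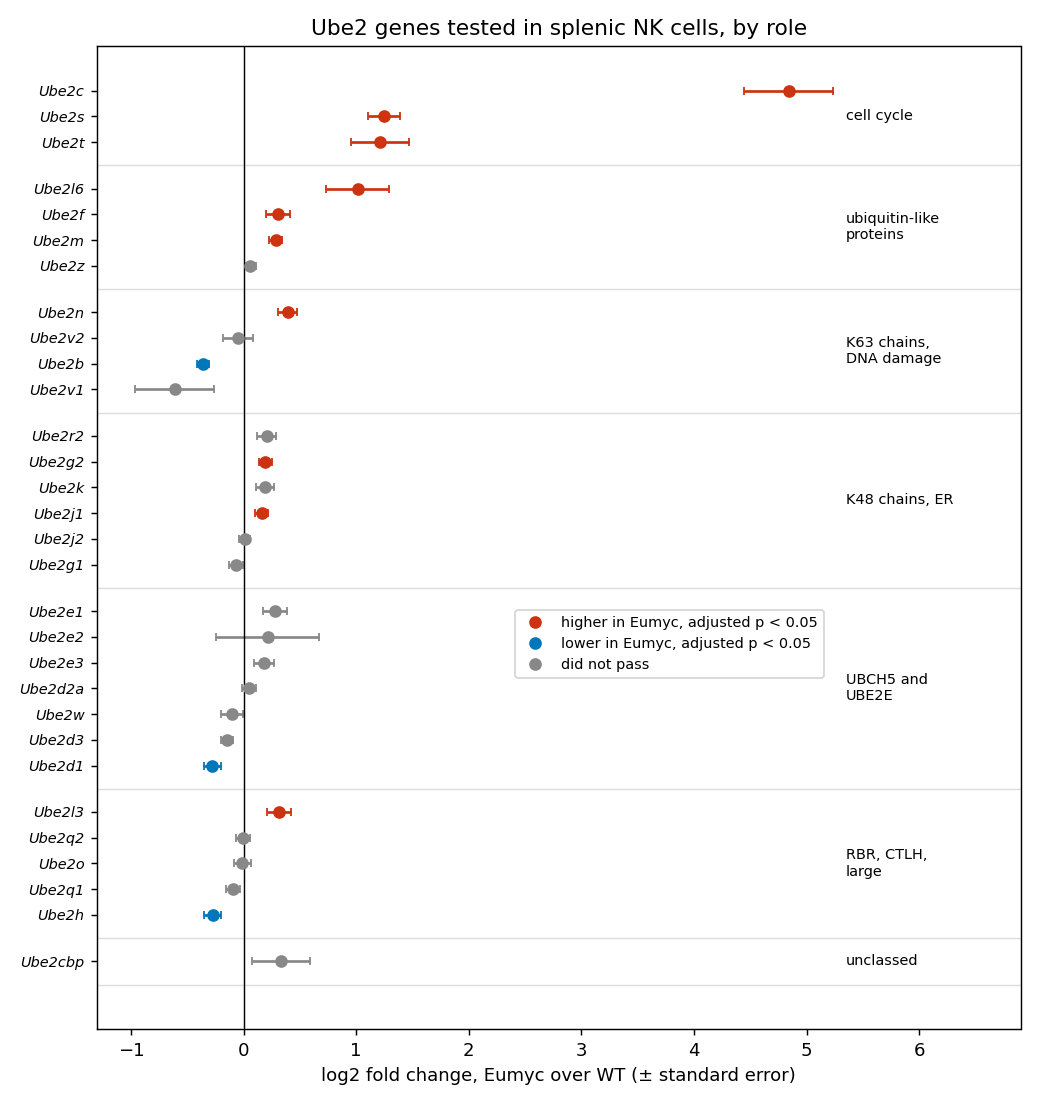
Log2 fold change of Eumyc over WT with its standard error (x axis) for 30 of the 31 tested Ube2 genes (y axis), grouped by role and coloured by the edgeR call. Ube2c stands at 4.84, Ube2s, Ube2t and Ube2l6 between 1.02 and 1.25, and all other called genes drawn within 0.39 of 0.

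The cell-cycle members all rose. Ube2c (ENSMUSG00000001403, chromosome 2 from 164769898 to 164778822 on the GRCm38 build, as the other positions here) encodes the E2 that starts ubiquitin chains for the anaphase-promoting complex. In WT 1, 2 and 3 its level was 1.48, 1.76 and 4.91 CPM, and in Eumyc 1, 2 and 3 it was 59.5, 59.7 and 93.0 CPM. The lowest Eumyc library was thus above the highest WT library, and WT 3 was above the other WT libraries. Ube2c rose 28.7-fold (log2 fold change 4.84 ± 0.39 SE, edgeR adjusted p = 0.000171), and by 5.45 on the log2 scale without WT 3. In the authors' deposited table its log2 fold change was 2.86, and with DESeq2 as fitted here it was 4.72. The submitters' processing notes name another version of DESeq2, and the cause of this difference was not tested. Tnnc2, on the other strand, overlaps 22.8% of the exon bases of Ube2c and held 3 counts over all 6 libraries.

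The promoter of Ube2c is shown because this gene moved most in the family, and that of Ube2t because it shares one motif with it. The sequences are from RefSeq on GRCm38.p6, plus strand, from position -250 to -11 relative to the annotated start site, at chr2:164769679-164769918 for Ube2c and chr1:134962315-134962554 for Ube2t. Capitals mark the CCAAT box (CCAAT) and the cell cycle homology region (TTTGAA), searched on both strands.
Ube2c: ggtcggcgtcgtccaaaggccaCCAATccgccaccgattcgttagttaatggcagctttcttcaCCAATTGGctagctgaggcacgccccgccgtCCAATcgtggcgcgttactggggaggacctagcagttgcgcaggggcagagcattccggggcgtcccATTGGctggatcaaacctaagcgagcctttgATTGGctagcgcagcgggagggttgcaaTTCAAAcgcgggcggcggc
Ube2t: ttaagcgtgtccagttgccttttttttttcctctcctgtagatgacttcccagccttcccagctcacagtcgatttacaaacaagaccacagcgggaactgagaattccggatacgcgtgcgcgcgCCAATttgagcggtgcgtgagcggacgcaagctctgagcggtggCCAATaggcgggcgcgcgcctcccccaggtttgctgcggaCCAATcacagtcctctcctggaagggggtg
The Ube2c window held 6 CCAAT matches, 2 of them overlapping on opposite strands in CCAATTGG, and 1 cell cycle homology region, on the minus strand and so printed as its reverse complement, that begins 29 bases before the start site. The Ube2t window held 3 CCAAT matches, at 124, 80 and 40 bases before the start, and no cell cycle homology region.

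Of 32851 promoter windows of 300 bases in the table (from position -250 to 50 around a start), 37.4% held a CCAAT box, 3.37% held at least 3 and 0.0791% at least 6. The cell cycle homology region was in 17.9%, and at least 3 CCAAT boxes together with it in 0.545%. Among the 38 windows of Ube2 genes, 8 held a CCAAT box and 4 the cell cycle homology region. A window of Ube2d2b, which had 0 counts in all libraries, held both motifs. The windows of Ube2s held neither motif. One of the windows of Ube2f, which encodes an E2 for NEDD8 and rose far less than Ube2c, held 3 CCAAT boxes and 1 cell cycle homology region. The E-box (CACGTG), the sequence to which MYC binds, was in 7.15% of all windows and in 3 of 38 windows of Ube2 genes, those of Ube2b, Ube2cbp and Ube2q1. Matches are a description of letters in a window.

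Ube2s (ENSMUSG00000060860, chromosome 7 from 4794546 to 4812590) encodes the E2 that extends the chains UBE2C has begun. Its values were 16.4, 19.4 and 21.4 CPM in WT 1, 2 and 3 and 41.7, 40.05 and 53.9 CPM in Eumyc 1, 2 and 3. The groups did not overlap, and Eumyc 3 was the highest library. It rose 2.38-fold (log2 fold change 1.25 ± 0.14 SE, edgeR adjusted p = 0.000386). Its exons share 183 bases with Rpl28 on the other strand, which held 57047 counts in all against 9505 for Ube2s. The strand setting of the counting is not given in the sources used here.

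Ube2t (ENSMUSG00000026429, chromosome 1 from 134962565 to 134974162) encodes the E2 that puts a single ubiquitin on FANCD2 and FANCI when DNA strands are crosslinked. In WT 1, 2 and 3 its level was 5.20, 5.19 and 9.82 CPM, and in Eumyc 1, 2 and 3 it was 12.8, 14.6 and 18.4 CPM. WT 3 was nearer to Eumyc 1 than to the other WT libraries, but the groups did not overlap. Ube2t rose 2.32-fold (log2 fold change 1.21 ± 0.26 SE, edgeR adjusted p = 0.00551), and against a change of 1.5-fold its adjusted p was 0.0549.

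**Figure D2:**
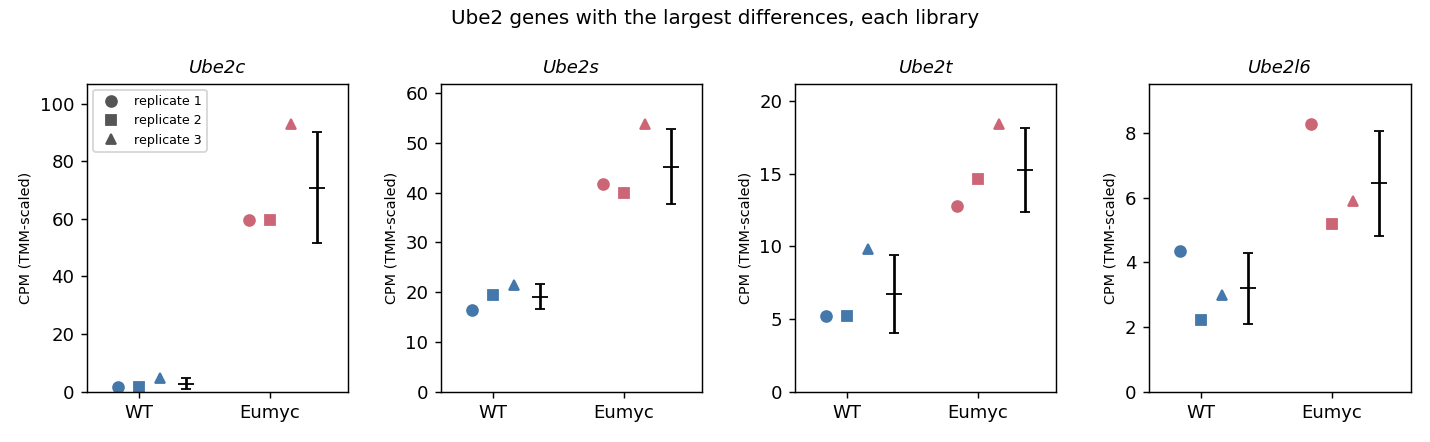
TMM-scaled CPM (y axes, from 0) of Ube2c, Ube2s, Ube2t and Ube2l6 in each WT and Eumyc library (symbols by replicate number), with the mean and SD over 3 libraries as a bar beside them. In all 4 genes the Eumyc libraries lie above the WT libraries, as in 31.3% of all tested genes. WT 3 is the highest WT library for Ube2c (4.91 CPM) and Ube2t (9.82 CPM), and Eumyc 1 is the highest Eumyc library for Ube2l6 (8.29 CPM).

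Because the cell-cycle members are known to vary with cell division, they were set against 15 genes of the G2 phase and mitosis in the same library. All 15 rose, with a median log2 fold change of 3.75. The mitotic cyclin genes Ccnb1 and Ccna2 and the mitotic kinase gene Plk1 had the largest log2 fold changes among them, 4.69 ± 0.40, 4.04 ± 0.55 and 4.05 ± 0.36 SE, and Mki67, the common proliferation marker, rose by 3.42 ± 0.59 SE. The summed level of the 15 genes was 114, 95.7 and 428 CPM in WT 1, 2 and 3 and 1931, 2026 and 2879 CPM in Eumyc 1, 2 and 3. WT 3 exceeded the mean of WT 1 and 2 in all 15 genes, by a median of 1.92 log2 units, and did so by 1.36 for Ube2c, 0.86 for Ube2t and 0.26 for Ube2s.

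Per 1000 CPM of these 15 genes, Ube2c was at 13.04, 18.6 and 11.7 CPM in the WT libraries and at 30.0, 29.2 and 32.2 CPM in the Eumyc libraries. Relative to this sum, in which Mki67 and Top2a have the highest levels, Ube2c was higher in every Eumyc library than in every WT library. Against the 15 genes 1 by 1, this held for 11, and the groups overlapped against Aurkb, Ccna2, Ccnb1 and Cenpf, named after their values were seen. Ube2s went the other way, from 145, 205 and 50.9 CPM in WT to 21.0, 19.6 and 18.7 CPM in Eumyc. Ube2t did so as well, at 45.8, 54.9 and 23.3 CPM in WT and 6.45, 7.14 and 6.39 CPM in Eumyc. For Ube2s and Ube2t the Eumyc libraries were lower against all 15 genes taken singly. This largely restates the fold changes, since the smallest log2 fold change of the 15 was 2.81, against 1.25 for Ube2s and 1.21 for Ube2t. The 3 Eumyc libraries lay close together in each of these ratios, whereas WT 3 was the WT library nearest to Eumyc for Ube2s and Ube2t and farthest from it for Ube2c. With 3 libraries against 3, a two-sided exact permutation test cannot go below a p of 0.1, and these ratios are given as a description.

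**Figure D3:**
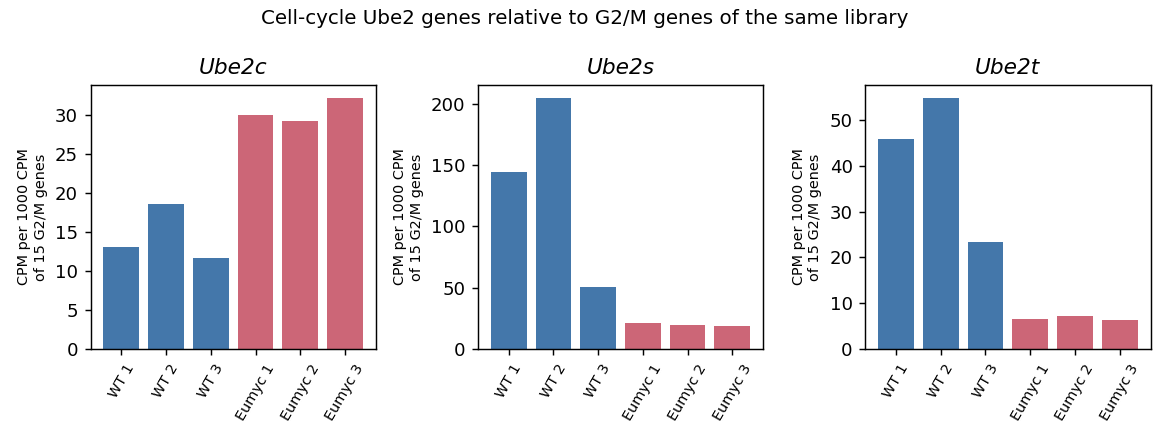
CPM of Ube2c, Ube2s and Ube2t per 1000 CPM of 15 G2/M genes (y axes, from 0) in each library (bars). Relative to the sum of these genes, Ube2c lies at 29.2 to 32.2 in Eumyc against 11.7 to 18.6 in WT, while Ube2s and Ube2t lie lower in every Eumyc library than in every WT library.

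The partners of these E2 enzymes were uneven. Of 17 genes of the anaphase-promoting complex and its regulators, 7 rose and none fell, with a median log2 fold change of 0.15. For this list and those below, the shares over all tested genes were 25.7% higher and 23.1% lower. The activator gene Cdc20 went from 5.95 ± 2.74 to 61.6 ± 13.7 CPM (SD, n = 3 each, log2 fold change 3.43 ± 0.31 SE). Fbxo5, whose product inhibits the complex, rose by 2.02 ± 0.22 SE, and the later-acting activator gene Fzr1 by 0.90 ± 0.07 SE. The 4 other genes that rose, Anapc1, Anapc5, Anapc15 and Cdc27, encode subunits of the complex, had log2 fold changes of 0.19 to 0.57 and were named after their values were seen. The other 10 genes did not pass.

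In the Fanconi monoubiquitination list 7 of 12 genes rose and 1 fell, with a median of 0.44, and 2 fell with limma-voom, total counts or a filter of 3 CPM. Fancd2 and Fanci, which encode the targets of UBE2T, rose by 2.44 ± 0.37 SE and 1.49 ± 0.31 SE, and Fanca rose by 1.47 ± 0.25 SE. Fancl, which encodes the ligase that UBE2T serves, went from 9.50 ± 1.27 to 13.9 ± 1.54 CPM (SD, n = 3 each, log2 fold change 0.56 ± 0.14 SE, edgeR adjusted p = 0.0111). The difference in the ligase gene was thus smaller in fold than the fitted difference of Ube2t or of its target genes, although the differences between genes were not tested.

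Among the 28 tested members outside the cell cycle, 7 rose and 4 fell, against 25.7% higher and 23.1% lower over all genes. Their median log2 fold change was 0.05. The share that rose was thus near the background. In 16 of these 28 genes the CPM ranges of the groups did not overlap, with 11 higher and 5 lower in Eumyc. Over all tested genes 60.2% did not overlap, 31.3% with Eumyc above and 28.9% with Eumyc below. The count of higher genes was 3 with scaling by total counts, 2 without WT 2, 3 without Eumyc 1 and 4 without Eumyc 3.

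Among the E2 enzymes of ubiquitin-like proteins 3 of 5 rose, and 1 rose without WT 2 or without Eumyc 1. The share of all tested genes that rose was 25.7%. Ube2l6 (ENSMUSG00000027078, chromosome 2 from 84798828 to 84810335) encodes the E2 for ISG15, a ubiquitin-like protein made in response to interferon. Its level in WT 1, 2 and 3 was 4.37, 2.22 and 3.00 CPM, which are 121, 82 and 50 counts. In Eumyc 1, 2 and 3 it was 8.29, 5.18 and 5.88 CPM. The groups did not overlap, and Eumyc 1 was the highest library. Ube2l6 rose 2.02-fold (log2 fold change 1.02 ± 0.28 SE, edgeR adjusted p = 0.0171), but leaving out WT 2 gave an adjusted p of 0.0578 and leaving out Eumyc 1 one of 0.0525, with log2 fold changes of 0.80 and 0.81. Eumyc 1 was also the highest library of the monocyte and macrophage markers, at 1170 CPM, and of Isg15, and the part of these cells in the result was not tested.

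In the rest of the ISG15 pathway, 2 of 5 genes rose and 1 fell. Isg15 itself had 5.52, 6.63 and 10.7 CPM across WT 1, 2 and 3 against 31.4, 16.7 and 17.3 CPM across Eumyc 1, 2 and 3 (log2 fold change 1.54 ± 0.31 SE). Usp18, which encodes the protease that removes ISG15, rose by 0.80 ± 0.29 SE with overlapping groups. Uba7, the gene of the ISG15-activating E1, fell from 234 ± 8.69 to 187 ± 14.4 CPM (SD, n = 3 each), while the ligase gene Herc6 and Trim25 did not pass. The E1 and the E2 genes of this modifier were therefore called in opposite directions. When WT 1, WT 2, Eumyc 1 or Eumyc 2 was left out, and with DESeq2, limma-voom or total counts, 1 gene of the list was higher. The window of the Ube2l6 promoter held no match to the core of the interferon-stimulated response element, which was in 3.44% of all windows.

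Ube2m and Ube2f encode the pair of E2 enzymes for NEDD8, the modifier that switches on cullin ligases. Ube2m (ENSMUSG00000005575, chromosome 7 from 13035120 to 13038275) had 71.2, 74.7 and 76.6 CPM in WT 1, 2 and 3, against 89.5, 89.0 and 92.3 CPM in Eumyc 1, 2 and 3. The libraries within each group were close and the groups did not overlap (log2 fold change 0.28 ± 0.06 SE, edgeR adjusted p = 0.00357). Ube2f (ENSMUSG00000034343, chromosome 1 from 91250304 to 91290337) had 32.5, 30.1 and 33.4 CPM in WT, against 45.8, 37.0 and 35.6 CPM in Eumyc, with Eumyc 1 above the others. It rose by 0.30 ± 0.11 SE (edgeR adjusted p = 0.0455). Leaving out WT 1 gave an adjusted p of 0.0886, WT 2 one of 0.129 and Eumyc 1 one of 0.118, where the log2 fold change was 0.20. It was 0.0547 with limma-voom and 0.0612 with total counts.

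The gene of the modifier itself, Nedd8, had 45.7 ± 2.47 CPM in WT and 61.0 ± 2.00 CPM in Eumyc (SD, n = 3 each, log2 fold change 0.42 ± 0.07 SE). The genes of its E1, Uba3 and Nae1, did not pass. In the list of cullin ligase cores and neddylation factors 3 of 14 genes rose and 1 fell, with a median of -0.0026, so that most genes downstream of the NEDD8 enzymes did not pass. The scaffold gene Cul2 rose by 0.23 ± 0.07 SE, and Dcun1d5 and Dcun1d2, which encode factors that promote neddylation, had log2 fold changes of 0.24 ± 0.06 and -0.26 ± 0.07 SE. With WT 1, WT 2 or Eumyc 1 left out, 1 gene was higher. With WT 2, Eumyc 1 or Eumyc 2 left out or with no filter none was lower, and with total counts or a filter of 3 CPM 2 were.

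In the SUMO cascade, the genes of both subunits of the E1 rose, Sae1 by 0.52 ± 0.09 SE and Uba2 by 0.39 ± 0.06 SE. Of 11 genes of SUMO ligases and proteases 5 fell and 1 rose, with a median of -0.15, and 2 rose without Eumyc 3, with DESeq2 or with no filter. The ligase genes Pias3 and Pias2 fell by 0.56 (SE 0.07) and 0.39 (SE 0.07), and the protease gene Senp1 rose by 0.28 ± 0.05 SE. The called E1 genes of this cascade were thus higher, and most called ligase and protease genes lower, in Eumyc.

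Ube2z, which encodes an E2 charged by the E1 UBA6, was at 131 ± 3.78 and 136 ± 2.61 CPM (SD, n = 3 each) and did not pass (edgeR adjusted p = 0.349). Its E1 gene Uba6 had 36.6 ± 1.68 CPM in WT and 48.3 ± 1.35 CPM in Eumyc (SD, n = 3 each, log2 fold change 0.40 ± 0.07 SE). The gene of the main ubiquitin E1, Uba1, had 398, 412 and 394 CPM across WT 1, 2 and 3 against 539, 516 and 530 CPM across Eumyc 1, 2 and 3, and it rose by the same amount on the log2 scale, 0.40 ± 0.05 SE. In all, 4 of 9 E1 genes rose and 2 fell, with 1 lower gene in each fit that left out WT 1, WT 2 or a Eumyc library or used no filter, and 4 with total counts. Of 11 genes for ubiquitin and ubiquitin-like proteins 5 rose and none fell, with 3 higher when WT 1, WT 2 or Eumyc 3 was left out and 1 lower when Eumyc 3 was. The ubiquitin gene Ubb did not pass, and Sumo3 rose by 0.34 ± 0.09 SE.

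Of the 4 enzyme genes of lysine 63 chains and DNA damage, 1 was called higher and 1 lower. The shares over all tested genes were 25.7% higher and 23.1% lower. Ube2n (ENSMUSG00000074781, chromosome 10 from 95515145 to 95545657) encodes UBC13, the E2 that builds lysine 63 chains. Its level was 51.7, 46.8 and 57.1 CPM across WT 1, 2 and 3, against 70.3, 63.7 and 69.6 CPM across Eumyc 1, 2 and 3. The groups did not overlap, and Ube2n rose 1.31-fold (log2 fold change 0.39 ± 0.09 SE, edgeR adjusted p = 0.00602). A processed pseudogene of it, Ube2n-ps1, held 157, 204 and 104 counts across WT and 416, 630 and 662 across Eumyc. Ube2n itself held 1433, 1730 and 953 counts, then 3044, 4118 and 4626. Reads may be split between these copies, so the value of Ube2n is uncertain to that extent.

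UBC13 works only in a pair with an inactive E2-like partner, encoded by Ube2v1 or Ube2v2. Neither partner gene passed. Ube2v2 was at 8.46 ± 1.06 and 8.20 ± 0.42 CPM (SD, n = 3 each). Ube2v1 was at 1.82 ± 0.76 and 1.18 ± 0.21 CPM, and leaving out WT 1 gave an adjusted p of 0.0467, with a log2 fold change of -0.90. A readthrough gene on the same strand covers 61.5% of the exon bases of Ube2v1 in the GENCODE M21 annotation, so reads may have been left uncounted and its level is uncertain.

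Ube2b (ENSMUSG00000020390, chromosome 11 from 51985497 to 52000762) encodes RAD6B, the E2 that works with RAD18 on damaged DNA and with RNF20 and RNF40 on histone H2B. Its level was 134, 132 and 123 CPM across WT 1, 2 and 3, against 101, 102 and 98.9 CPM across Eumyc 1, 2 and 3. All Eumyc libraries lay below all WT libraries, and Ube2b fell by 0.36 on the log2 scale (SE 0.05, edgeR adjusted p = 0.00109), the smallest adjusted p of the members outside the cell cycle. It was 1.29-fold higher in WT. Of 12 ligase genes for lysine 63 chains and DNA damage, 6 fell and 2 rose, with a median of -0.11. Rad18 rose by 0.62 ± 0.13 SE, and Birc3, which encodes a ligase of NF-kB signalling, by 0.33 ± 0.06 SE, while Shprh, the gene of a PCNA ligase, fell by 0.31 (SE 0.07). Rnf20 fell by 0.21 (SE 0.05) and Rnf40 by 0.26 (SE 0.05), so both H2B ligase genes were lower together with Ube2b, and Rad18 was not.

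**Figure D4:**
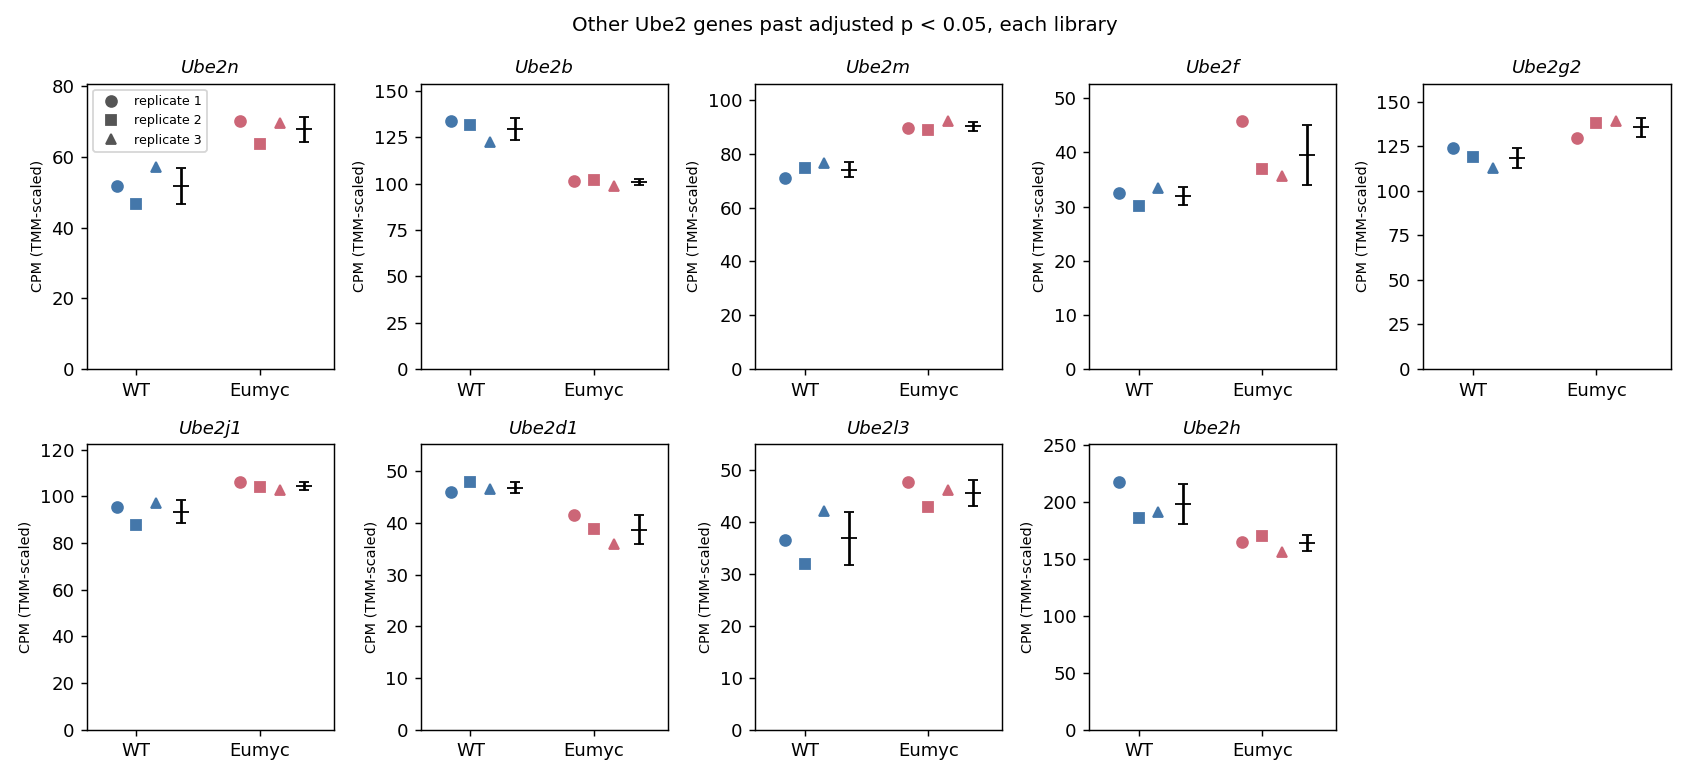
TMM-scaled CPM (y axes, from 0) of 9 other Ube2 genes past the threshold in each library (symbols by replicate number), with mean and SD over 3 libraries. The differences are small beside the level of each gene, from 1.12-fold higher in Ube2j1 to 1.31-fold higher in Ube2n and 1.29-fold lower in Ube2b. No group overlaps the other, but the genes were chosen by a test on these same libraries. Over all tested genes 60.2% did not overlap.

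Enzymes of lysine 48 chains and of the endoplasmic reticulum (ER) were higher in 2 of 6 cases and lower in none. Over all tested genes 25.7% were higher and 23.1% lower. None of the 6 was higher when WT 2, Eumyc 2 or Eumyc 3 was left out or with total counts. The count was 1 when WT 3 or Eumyc 1 was left out, and 4 with the replicate block. Ube2g2 (ENSMUSG00000009293, chromosome 10 from 77622275 to 77645993), which encodes a cytosolic E2 of ER-associated degradation, had 124, 119 and 113 CPM in WT 1, 2 and 3, against 129, 138 and 139 CPM in Eumyc 1, 2 and 3. Eumyc 1 was close to WT 1, and the gene rose by 0.19 ± 0.06 SE (edgeR adjusted p = 0.0247). Leaving out WT 2, WT 3, Eumyc 2 or Eumyc 3 gave adjusted p-values of 0.0599, 0.0525, 0.0595 and 0.0700, and total counts one of 0.0556. Ube2j1 (ENSMUSG00000028277, chromosome 4 from 33031416 to 33052363) encodes an E2 anchored in the ER membrane. It had 95.4, 87.7 and 96.9 CPM in WT, against 106, 104 and 103 CPM in Eumyc, with no overlap (log2 fold change 0.16 ± 0.06 SE, edgeR adjusted p = 0.0462). Leaving out any 1 library other than WT 3 ended the call, with adjusted p-values of 0.0706 and 0.119 for WT 1 and 2 and 0.0985, 0.0715 and 0.0738 for Eumyc 1, 2 and 3. It was 0.0990 with total counts and 0.0584 with no filter.

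The other ER-anchored enzyme gene, Ube2j2, was at 78.3 ± 1.16 and 78.8 ± 1.09 CPM (SD, n = 3 each), and Ube2g1 was at 75.8 ± 4.04 and 72.4 ± 1.77 CPM. Neither passed. Ube2r2, a relative of the cullin ligase E2 CDC34, was at 84.4 ± 8.58 and 97.3 ± 5.80 CPM (edgeR adjusted p = 0.0725, and 0.0485 without WT 1 and 0.0490 with no filter), and Ube2k at 48.003 ± 4.34 and 54.8 ± 1.22 CPM (edgeR adjusted p = 0.0741). Cdc34 itself, whose symbol lies outside the rule, had 72.3 ± 3.70 CPM in WT and 87.7 ± 4.68 CPM in Eumyc (log2 fold change 0.28 ± 0.07 SE). Of 7 genes with an E2 fold but another symbol, 2 rose and 1 fell: besides Cdc34, Ufc1, the E2 gene of the modifier UFM1, rose by 0.38 ± 0.08 SE, and Aktip, whose product lacks the catalytic cysteine, fell by 0.44 (SE 0.13). None was lower when WT 1, WT 2, Eumyc 1 or Eumyc 3 was left out.

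In the list of ER-associated degradation 5 of 12 genes rose and 2 fell, with a median of -0.03. Vcp, the gene of the ATPase that pulls proteins from the ER, rose by 0.48 ± 0.08 SE, Edem1, which encodes a lectin for misfolded glycoproteins, by 0.34 ± 0.06 SE, and Herpud1, which encodes a scaffold of the ER ligase, fell by 0.24 (SE 0.05). Leaving out WT 2 or Eumyc 1 left 3 higher genes, leaving out WT 1, WT 2, Eumyc 1 or Eumyc 3 or using no filter left 1 lower gene, and total counts gave 3 higher and 4 lower. A filter of 3 CPM gave 4 lower. The genes of this pathway therefore had calls in both directions, as the lysine 63 and SUMO genes did.

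Enzymes that start chains, the UBCH5 group (Ube2d) and the UBE2E group with Ube2w, gave 1 call in 7 tested genes. Ube2d1 (ENSMUSG00000019927, chromosome 10 from 71254980 to 71285262) had 46.0, 48.01 and 46.5 CPM across WT 1, 2 and 3, against 41.5, 38.8 and 35.9 CPM across Eumyc 1, 2 and 3. The Eumyc libraries were all lower, and Ube2d1 fell by 0.28 on the log2 scale (SE 0.08, edgeR adjusted p = 0.0162). Leaving out WT 2, Eumyc 2 or Eumyc 3 gave adjusted p-values of 0.0585, 0.0526 and 0.0649.

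Ube2d3 and Ube2d2a encode its near relatives. Ube2d3 was at 514 ± 14.0 and 464 ± 13.5 CPM (SD, n = 3 each) with no overlap between groups. It did not pass (edgeR adjusted p = 0.0523), but was below the threshold with DESeq2 (0.0367), limma-voom (0.0438), total counts (0.0195) and a filter of 3 CPM (0.0293), always lower in Eumyc. Ube2d2a was at 96.3 ± 5.39 and 99.5 ± 1.57 CPM (edgeR adjusted p = 0.512). The 3 coding sequences are much alike and a pseudogene, Ube2d-ps, held 167 to 676 counts a library, so the split between these genes is uncertain.

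Ube2e1 was at 14.8 ± 1.39 and 17.9 ± 0.75 CPM (SD, n = 3 each, edgeR adjusted p = 0.0565), and passed without WT 1 (0.0456), with DESeq2 (0.0458) and with limma-voom (0.0372). It shares 718 exon bases with Nkiras1 on the other strand, which held 2949 counts in all against 4319 for Ube2e1. Ube2e3 was at 62.9 ± 6.63 and 71.2 ± 3.54 CPM (edgeR adjusted p = 0.111, and 0.0397 when WT 3 was left out), and Ube2w at 25.3 ± 2.87 and 23.6 ± 0.47 CPM. Ube2e2 was close to the limit of detection, with 4 to 8 counts a library in WT and 10 to 19 in Eumyc. Of the 7 tested chain-starting genes 1 was thus called, where 48.8% of all tested genes were. With DESeq2 or limma-voom 1 chain-starting gene was higher and 2 were lower.

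The remaining members serve particular ligases or are large, unusual E2 enzymes. Ube2l3 (ENSMUSG00000038965, chromosome 16 from 17152013 to 17202649) encodes UBCH7, which works with ligases of the RBR and HECT classes. Its level was 36.7, 31.9 and 42.1 CPM across WT 1, 2 and 3, against 47.8, 42.9 and 46.3 CPM across Eumyc 1, 2 and 3. WT 3 nearly reached Eumyc 2, and Ube2l3 rose by 0.31 ± 0.11 SE (edgeR adjusted p = 0.0374). Leaving out WT 1, WT 2, Eumyc 1 or Eumyc 3 gave adjusted p-values of 0.0942, 0.106, 0.0930 and 0.0849, and total counts one of 0.0590. Its exons share 1670 bases with Ydjc on the other strand, which held 1727 counts in all against 10819 for Ube2l3.

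The genes of ligases that UBCH7 can serve were mostly not called. Of 21 RBR and HECT ligase genes 5 fell and 1 rose, with a median of -0.07. The gene that rose, Rnf19b, was at 16.5 ± 0.98 and 49.0 ± 4.36 CPM (SD, n = 3 each, log2 fold change 1.57 ± 0.09 SE). It encodes an RBR ligase described in the killing function of NK cells. Wwp1, which encodes a HECT ligase, fell by 0.47 (SE 0.08) and Arih2, which encodes an RBR ligase of cullin complexes, by 0.37 (SE 0.05). Leaving out WT 1, WT 2 or Eumyc 1 left 3 lower genes, while a filter of 3 CPM gave 8 and total counts 9.

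Ube2h (ENSMUSG00000039159, chromosome 6 from 30211289 to 30304539) encodes the E2 of the CTLH ligase, a complex with known work in maturing red blood cells. Its level was 218, 186 and 191 CPM across WT 1, 2 and 3, against 165, 170 and 156 CPM across Eumyc 1, 2 and 3. The groups did not overlap, and Ube2h fell by 0.28 (SE 0.07, edgeR adjusted p = 0.0136), with an adjusted p of 0.0538 without Eumyc 3. Of 10 genes of the CTLH complex 3 fell and 1 rose: Ranbp10, Mkln1 and Rmnd5a fell by 0.36 (SE 0.05), 0.26 (SE 0.07) and 0.24 (SE 0.07). Leaving out WT 1, Eumyc 2 or Eumyc 3 left 1 lower gene. None was higher when any 1 library other than WT 3 was left out or with total counts, and 2 were when WT 3 was. Ube2o, which encodes a large E2 that also acts in red cell maturation, had 31.4 ± 1.00 CPM in WT and 31.1 ± 1.58 CPM in Eumyc and missed the threshold (edgeR adjusted p = 0.904). The erythroid markers were higher in Eumyc, at 61.8 to 73.3 CPM against 14.9 to 33.8 CPM in WT. The part of erythroid cells in the values of Ube2h and Ube2o was not tested.

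Ube2q1 was at 186 ± 8.30 and 174 ± 9.13 CPM and Ube2q2 at 44.3 ± 0.64 and 44.1 ± 0.80 CPM (SD, n = 3 each), and neither passed. Ube2cbp, named for binding to UBE2C, is a member by its symbol only, since its product is described as an E3 ligase. It had 1.14 ± 0.15 CPM in WT and 1.42 ± 0.21 CPM in Eumyc and missed the threshold (edgeR adjusted p = 0.311).

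**Figure D5:**
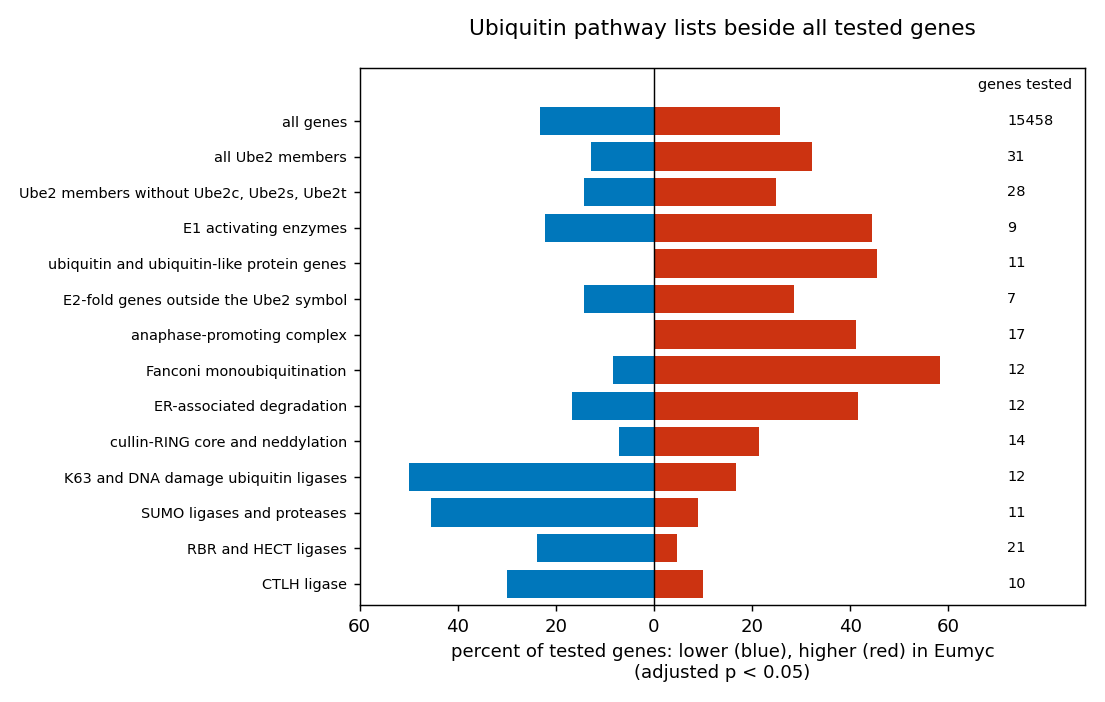
Percent of tested genes lower (blue, left) or higher (red, right) in Eumyc (x axis) for all genes, the Ube2 genes with and without the cell-cycle members, and 11 lists of their partners (y axis), with the number of genes tested at the right. The short ISG15 list is not drawn. All genes stand at 25.7% higher and 23.1% lower.

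The total of the family differed little between the groups. The summed level of all 35 genes was 2514 ± 54.9 CPM in WT and 2497 ± 29.2 CPM in Eumyc (SD, n = 3 each) without TMM scaling, a difference of -0.698%. With TMM scaling it was 2484 ± 52.4 and 2529 ± 20.3 CPM, a difference of 1.81%, so its sign depended on the scaling. The 3 cell-cycle members made up 28.9 ± 7.06 CPM of the unscaled sum in WT and 130 ± 30.5 CPM in Eumyc. The sum of the other members was 2485 ± 51.7 and 2367 ± 1.97 CPM, a difference of -4.76% that was -2.35% with TMM scaling, where the groups overlapped.

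Levels can be compared between genes only per length, and exon lengths were taken from GENCODE M21. Per kilobase of all exons of the gene, Ube2b was at rank 1 in WT, at 60.8 ± 2.78 CPM, and Ube2g2 at rank 3, at 48.7 ± 2.37 (SD, n = 3 each). In Eumyc Ube2g2 was at rank 1, at 55.7 ± 2.17, and Ube2b at rank 2, at 47.4 ± 0.75 CPM per kilobase. Ube2c was at rank 28 of the 35 genes in WT, at 1.04 ± 0.73, and at rank 9 in Eumyc, at 27.2 ± 7.42 CPM per kilobase.

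This order depended on the length used. Per kilobase of the median coding transcript Ube2d3 led in both groups, at 457 in WT and 413 in Eumyc. Its annotated exons sum to 24499 bases, and its median coding transcript has 1125. Ube2g2 was at rank 3 in WT and 2 in Eumyc. Ube2c was at rank 28 in WT and rank 12 in Eumyc on this scale. Under both lengths, then, Ube2c was among the low members of the family in WT and in the upper part of it in Eumyc.

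The authors' deposited table holds 28 of the 31 tested members. By its adjusted p 10 were higher and 5 lower, and 27 of the 28 had the same call as edgeR here. The gene that differed was Ube2d3, with a log2 fold change of -0.16 and an adjusted p of 0.00437 in the authors' deposited table.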

How the data were processed

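The labels' protocols name TruSeq library preparation. The authors deposited whole-number counts per Ensembl gene. The submitters' processing notes name STAR 2.5.2, HTSeq 0.6.1, DESeq2 1.10.1 and the builds mm10 and GRCm38. The annotation release and the strand setting were not found in the labels or file headers. The log2 fold changes and adjusted p-values of the authors' comparison were read from the table the authors deposited.

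Counts were fitted in R 4.3.3 with edgeR 4.0.16: filterByExpr at a minimum count of 10, TMM scaling, the group as the only term, and a two-sided quasi-likelihood test over all genes with adjusted p under 0.05. CPM are TMM-scaled unless said otherwise, and marker and G2/M sums are unscaled. Standard errors come from the F statistic. Members, lists and the rule for named genes were chosen with earlier results of these data known. In full are given the cell-cycle members, Ube2l6 and, per role, up to 3 called members with the largest log2 fold change, and per list up to 3 called genes of at least 10 CPM plus Uba1, Uba6, Cdc34, Cdc20, Fzr1, Fancl, Isg15 and Mki67. Other list genes named in the text were chosen after their values were seen. Alternatives were DESeq2 1.42.0, limma 3.58.1 voom, other scalings and filters, a 1.5-fold threshold, a replicate block and leaving out libraries. Code was tested on simulated data. Libraries of a group differed by more than sampling noise (lowest chi-square per degree of freedom 8.01). Figures used matplotlib 3.10.9. The upper limits given for genes at 0 counts cover counting error only. Ube2a, on the X chromosome, lies outside the rule. Results for 1 member and for some list genes are not reported here, though counts over the members include them.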

Additional observations from a re-analysis of the deposited data

How the results depend on the processing

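Against a change of 1.5-fold, 2 members were higher and 0 lower, none of them outside the cell cycle (0), and 1260 genes were higher, 568 lower and 24 pathway list genes past the threshold, in place of 10, 4, 7, 3973, 3576 and 80. The pathway list genes include the 15 G2/M genes, all of which passed in both fits. With total counts 6 members were higher, 3 of them outside the cell cycle. Leaving out 1 library at a time gave 5 to 10 higher members, 2 to 7 outside the cell cycle and 2 to 5 lower members. The cause was not tested. With DESeq2, limma-voom, DESeq2 size factors, no filter, a 3 CPM filter or the replicate block these counts over members, all genes and list genes together stayed within 1.5 times of the main values, but those of single lists and roles did not always.

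The sign turned in members that never passed. Ube2j2 was at -0.026 with total counts and -8.56e-05 with a 3 CPM filter. With no filter Ube2q2 was at 0.017 and Ube2o at 0.012. Leaving out 1 library, Ube2w ranged from -0.14 to 0.0088, Ube2v2 from -0.10 to 0.075, Ube2q2 from -0.0075 to 0.015, Ube2o from -0.034 to 0.043 and Ube2e2 from -0.024 without WT 2 to 0.45. Without WT 3 and Eumyc 1 together, chosen after seeing the data, Ube2o was at 0.028, and 8 members were higher and 3 lower.

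Whether samples with the same replicate number belong together is not stated in the labels. Deviations of same-numbered samples from their group means correlated at 0.08, 0.18 and 0.26, each sample correlating best with its own number. With the replicate block 17 members passed in place of 14, with Ube2k, Ube2r2 and Ube2d3 added. It gave 4 higher lysine 48 and ER enzymes in place of 2, 2 lower chain-starting enzymes in place of 1, 8 lower RBR and HECT ligase genes in place of 5, 4 lower ER-associated degradation genes in place of 2, 2 higher SUMO ligase and protease genes in place of 1, 1 lower ubiquitin or ubiquitin-like gene in place of 0 and 1 higher ISG15 pathway gene in place of 2. Depth limits Ube2e2, at 4 to 19 counts a library.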
